A study of Mus musculus with 16 samples.

Results

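The heme synthesis enzymes described here are 7 genes of the porphyrin pathway, Alas1, Alad, Uros, Urod, Cpox, Ppox and Fech, taken by name as steps of that pathway. They are 7 of the 53801 genes of the count table, and all 7 passed the filter on low counts, as did 13774 genes in all. RNA was sequenced from cultured murine acute myeloid leukemia (AML) cells driven by MLL-AF9, a fusion oncogene that keeps myeloid progenitors dividing. Every culture grew in RPMI medium with FBS, IL-3 and SCF and was given 4-OHT (4-hydroxytamoxifen) to switch on Cas9, so Cas9 induction is common to all groups. The control groups carried a non-targeting guide RNA, and the MCT4-KO groups had MCT4, the lactate and proton cotransporter encoded by Slc16a3, knocked out with the same nuclease. Cells of each genotype were kept at 20% or at 2% oxygen, which gives 4 groups of 4 libraries and 16 libraries in all. The sources used here do not give the hours spent at each oxygen level, the number of guides, or whether a group is 1 clone, a pool or separate cultures. The p-values therefore reflect only how much these libraries vary, and part of that may be technical.

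Heme is an iron-porphyrin that serves as the cofactor of oxygen carriers, cytochromes, peroxidases and oxidases. Its synthesis starts in mitochondria, where ALAS1 joins glycine with succinyl-CoA in the rate-limiting step of cells outside the red blood lineage, continues in the cytosol with ALAD, UROS and UROD, and returns to mitochondria for CPOX, PPOX and FECH. CPOX and PPOX use molecular oxygen as a substrate, and FECH, an iron-sulfur protein, inserts the iron. Myeloid cells need heme for myeloperoxidase and for the NADPH oxidase of their granules and membranes.

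Library totals ran from 21192151 to 28871413 counts. The targeted gene Slc16a3 averaged 209.9 ± 23.0 CPM (the count relative to the library total scaled by TMM, the trimmed mean of M-values) in control and 79.9 ± 11.1 in MCT4-KO at 20% oxygen, and 812 ± 23.4 against 365 ± 5.83 at 2% (SD, n = 4), so its mRNA was lower but still present in the MCT4-KO libraries. Control replicate 4 at 2% oxygen stood apart from its group: its counts differed from those of the other control libraries at 2% with a chi-square of 8.33 to 12.4 per gene, against 2.52 to 3.31 among those others; pairs of control libraries at 20% differed by 3.47 to 8.95. The mitochondrially encoded share of counts moved with oxygen, at 0.566 to 0.931% of counts in the 20% groups and 0.193 to 0.344% in the 2% groups, and its part in the results below was not tested. Of 17 genes known to be induced by hypoxia, 16 rose and 1 fell at 2% oxygen in either genotype. The same comparisons called 38.7% of all tested genes higher in control and 37.7% in MCT4-KO. The summed level of 12 myeloid markers was 2950 to 3297 CPM at 20% oxygen and 5725 to 6146 CPM at 2%, with none at 0. Elane, the neutrophil elastase, made up most of that gap, with 693 CPM on average in control at 20% and 3794 CPM at 2%. With low oxygen 9 of the 12 markers were called lower and 3 higher in control, and 6 and 3 in MCT4-KO. Of all tested genes, 39.6% were called lower and 38.7% higher in control, and 38.7% and 37.7% in MCT4-KO. The sum of 9 lymphoid markers was at most 0.0943 CPM. The 7 stromal and endothelial markers summed to 180 to 188 CPM at 20% and 261 to 303 CPM at 2%, nearly all of it Pecam1, which leukocytes also carry, at 182 CPM in control at 20% and 291 CPM at 2%. Col1a2, Cdh5 and Kdr were at 0 in every library.

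The genes lie on different chromosomes except for Alad and Urod, which share chromosome 4. In GRCm38 coordinates, Alas1 lies at chr9:106233455-106248654, Alad at chr4:62509169-62519918, Uros at chr7:133686243-133710072, Urod at chr4:116989965-116994413, Cpox at chr16:58670292-58717636 and Ppox at chr1:171275990-171281186. Cpox is on the plus strand and the other 6 are on the minus strand. The sources used here do not give the strand setting of the counting. Ppox shares 791 of its exon bases (17.5%) with B4galt3, Alas1 shares 465 (7.53%) with the antisense gene 4930500F10Rik, and Cpox shares 204 (3.06%) with Gpr15. B4galt3 averaged 29.2 to 32.7 CPM over the 4 groups, whereas 4930500F10Rik averaged at most 0.582 CPM and Gpr15 at most 0.395 CPM. The deposited values of Ppox and B4galt3 made a whole number together, such as 563.75 and 820.25 in control replicate 1 at 20% oxygen. Those of Alas1 and 4930500F10Rik did too, such as 2731.25 and 12.75 in that library. Some reads were therefore divided between these genes of opposite strands, and the counts cannot tell whose they were.

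The promoters of Urod, Cpox and Ppox are shown because these 3 genes changed with oxygen in both genotypes and no annotated exon falls in the window printed, which is the 250 bases before the RefSeq start in GRCm38.p6, read 5′ to 3′ on the strand of the gene. Capitals mark the core of the hypoxia response element, searched as ACGTG or GCGTG on both strands, so that CACGT and CACGC are the same core on the other strand and CACGTG holds it on both strands at once.
Urod, chr4:116994414-116994663, minus strand: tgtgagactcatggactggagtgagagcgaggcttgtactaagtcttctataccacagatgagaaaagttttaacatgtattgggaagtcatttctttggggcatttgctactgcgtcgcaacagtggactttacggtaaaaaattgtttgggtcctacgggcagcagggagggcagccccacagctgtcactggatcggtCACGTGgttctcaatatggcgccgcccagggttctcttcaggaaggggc
Cpox, chr16:58669958-58670207, plus strand: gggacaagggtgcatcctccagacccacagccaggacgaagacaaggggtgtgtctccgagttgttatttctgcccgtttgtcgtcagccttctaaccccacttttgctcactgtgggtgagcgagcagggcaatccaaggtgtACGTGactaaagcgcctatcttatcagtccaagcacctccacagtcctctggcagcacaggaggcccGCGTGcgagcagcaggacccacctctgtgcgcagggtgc
Ppox, chr1:171281187-171281436, minus strand: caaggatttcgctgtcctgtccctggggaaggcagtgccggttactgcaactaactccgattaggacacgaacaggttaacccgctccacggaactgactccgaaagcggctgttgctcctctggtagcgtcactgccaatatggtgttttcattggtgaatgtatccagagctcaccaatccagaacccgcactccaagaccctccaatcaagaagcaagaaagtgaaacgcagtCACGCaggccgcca
Urod carried the palindrome CACGTG, which starts at base -49 from the start site. Cpox carried ACGTG at -106 and GCGTG at -39, and Ppox carried CACGC at -14. The Cpox positions count from its RefSeq start at 58670208, which lies upstream of its GENCODE start at 58670292. RefSeq windows were at hand for 6 members, 9 windows in all, of which 7 held the core and 4 held CACGTG; the windows of Alas1 overlap each other, as do those of Alad. Over 32851 RefSeq promoter windows of the same length, 38.6% held the core and 6.02% held CACGTG. The windows of members had 48.8 to 74.4% G and C bases, beside a median of 52.4% over all windows. The shares were not matched for this content, so they do not show an excess of either motif. All 6 members with a window had the core, among them Urod and Cpox, which rose, Ppox, which fell, and Alad, which was not called. The part of the core in these changes was not tested. Uros had CACGTG at -250 of its first RefSeq start, which lies 38 bases from the start of Bccip, a gene read in the opposite direction.

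Lowering oxygen from 20% to 2% moved the pathway genes in both directions. In control cells 4 of 7 enzymes rose (Urod, Cpox, Fech and Alas1), 2 fell (Uros and Ppox) and Alad did not pass the test. The same comparison called 78.3% of all tested genes, 38.7% as higher and 39.6% as lower, so a call by itself sets no member apart. In MCT4-KO cells 2 rose (Urod and Cpox) and 2 fell (Uros and Ppox), where 76.4% of all tested genes were called (37.7% higher, 38.7% lower). Calls are at an adjusted p under 0.05 by edgeR's quasi-likelihood F-test with Benjamini-Hochberg adjustment over all 13774 genes, and fold changes are on the log2 scale with their standard error (SE). Uros and Urod, consecutive enzymes, moved farthest and in opposite directions: the size of their change was larger than that of 90.7% and 85.3% of all tested genes in control cells. The median absolute log2 fold change of the 7 members was 0.38 in control and 0.31 in MCT4-KO, beside 0.46 and 0.41 over all tested genes. Where groups are said below not to overlap, the share of all tested genes that also separate was not counted. In bulk RNA, fewer cells of a type and less RNA per cell cannot be told apart.

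How the libraries are scaled matters for the small changes. TMM scaling centred the fold changes of all tested genes near 0 (medians -0.017 in control and -0.014 in MCT4-KO), with 49.4% and 49.3% of called genes higher at 2% oxygen. With library-size scaling the medians were -0.22 and -0.19, and 35.2% and 35.4% of called genes were higher. The oxygen counts of gene lists given below with library-size scaling belong beside these shares, not beside those with TMM. The oxygen calls of Uros, Urod, Cpox and Ppox, in both genotypes, were made in each of the 16 alternatives run on each comparison, library-size scaling included. Those of Alas1 and Fech were not, as given beside them.

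**Figure D1:**
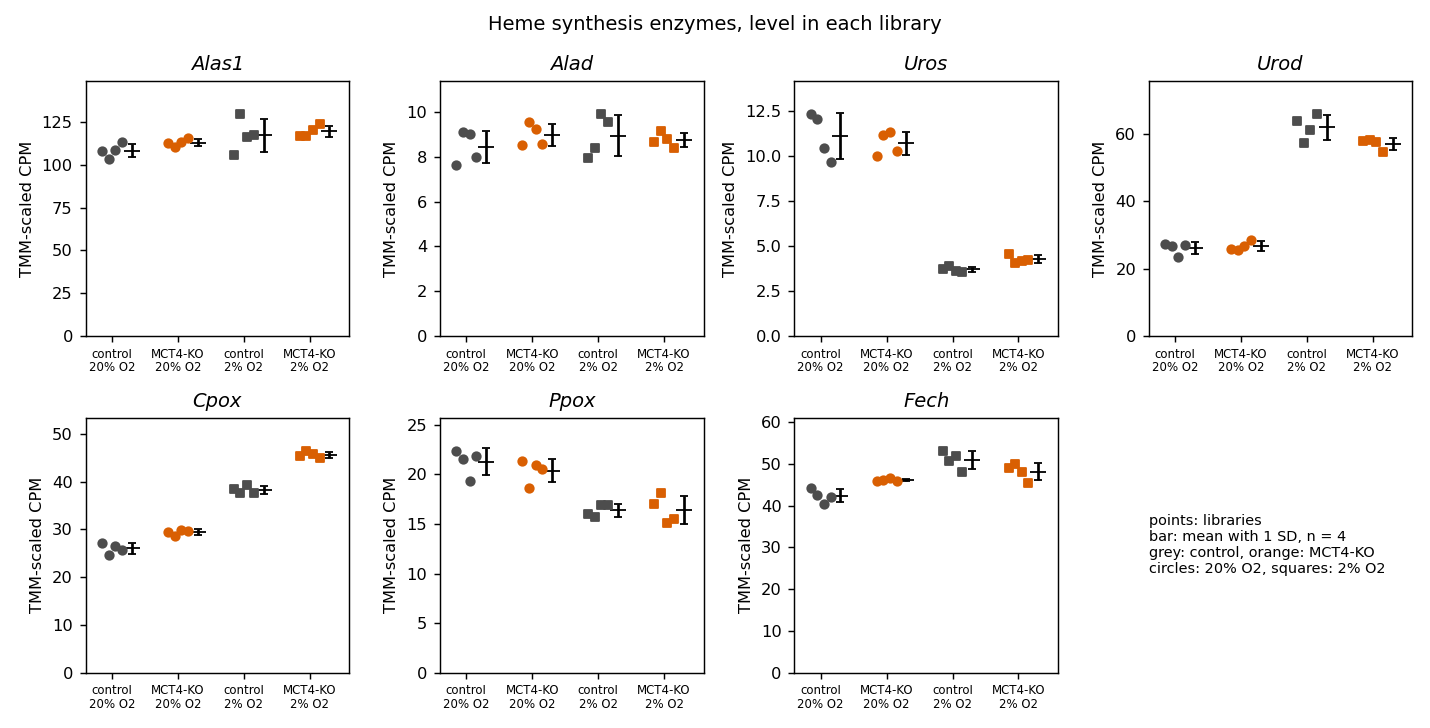
Level of each enzyme in every library in TMM-scaled CPM (vertical axes start at 0), with the mean and 1 SD of each group of 4. Uros drops from about 10 to 12 CPM to about 4 CPM at 2% oxygen and Urod rises from about 26 to about 60 CPM, while the 4 groups of Cpox form 4 separate steps.

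The entry enzymes moved little. Alas1, the rate-limiting synthase, had 108, 103, 108 and 113 CPM in the control libraries at 20% oxygen and 106, 129.6, 117 and 117 CPM in those at 2%. Control replicate 2 at 2% was the highest and replicate 1 lay inside the 20% range, so the groups overlapped. The MCT4-KO libraries had 113, 110.3, 113 and 116 CPM at 20% oxygen and 117, 117, 120.5 and 124 CPM at 2%, with every 2% library above every 20% library. The log2 fold change with low oxygen was 0.11 ± 0.046 (SE) in control (edgeR adjusted p = 0.0284) and 0.081 ± 0.046 in MCT4-KO (edgeR adjusted p = 0.113). The control call was lost without control replicate 2 at 20% oxygen (0.093, edgeR adjusted p = 0.0929), without control replicate 2 at 2% (0.060, edgeR adjusted p = 0.201) and when the 2 compared groups were fitted alone (0.11, edgeR adjusted p = 0.0884), and with library-size scaling the value was -0.090 (edgeR adjusted p = 0.0859); over the 16 alternatives the adjusted p ran from 0.00159 to 0.201. The log2 fold change of Alas1 with MCT4 knockout was 0.061 ± 0.046 at 20% and 0.027 ± 0.046 at 2% oxygen, neither of them called.

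Alad joins the product of ALAS1 into the pyrrole porphobilinogen and is known for its inhibition by lead. It had 7.66, 9.09, 9.03 and 7.99 CPM in control at 20% oxygen, and 7.95, 8.38, 9.90 and 9.56 CPM in control at 2%. The MCT4-KO libraries lay in the same range, at 8.52, 9.57, 9.23 and 8.58 CPM at 20% and 8.68, 9.14, 8.81 and 8.42 CPM at 2%. All 4 groups overlapped, and no comparison called Alad. The 95% interval of its log2 fold change with low oxygen was -0.081 to 0.25 in control and -0.20 to 0.12 in MCT4-KO, so changes within these bounds could not be told from none at 184 to 259 counts per library.

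The cytosolic ring enzymes went apart. Uros, which closes the porphyrin ring, had 12.3, 12.1, 10.4 and 9.70 CPM in control at 20% oxygen and 3.72, 3.89, 3.63 and 3.57 CPM at 2%. In MCT4-KO it had 10.04, 11.2, 11.4 and 10.3 CPM at 20% and 4.58, 4.08, 4.17 and 4.21 CPM at 2%. Each 2% library was far below each 20% library, and the fall of 1.59 ± 0.088 on the log2 scale in control (edgeR adjusted p = 8.35e-13) left Uros at 0.332 of its 20% level. In MCT4-KO it fell by 1.33 ± 0.085 (edgeR adjusted p = 9.70e-12), to 0.397 of that level. The difference between the genotypes, 0.25 ± 0.13, did not pass the test (edgeR adjusted p = 0.155). Uros rested on 77 to 114 counts per library at 2% oxygen and 231 to 315 at 20%.

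Knockout at 2% oxygen gave Uros 4.26 ± 0.220 CPM against 3.70 ± 0.138 in control (SD, n = 4). All 4 MCT4-KO libraries were above all 4 control libraries, but the log2 fold change of 0.20 ± 0.10 was not called (edgeR adjusted p = 0.129), in a comparison that called 38.4% of all tested genes. At 20% oxygen the genotypes overlapped (-0.055 ± 0.073, edgeR adjusted p = 0.709). Bccip, the neighbour that starts 38 bases away on the other strand and shares no exon base with Uros, fell by 0.17 ± 0.045 with low oxygen in control (edgeR adjusted p = 0.00213). In MCT4-KO its log2 fold change was 0.095 ± 0.044 (edgeR adjusted p = 0.0569).

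Urod, the decarboxylase that follows UROS, rose. It had 27.3, 26.7, 23.5 and 26.9 CPM in control at 20% oxygen and 63.8, 57.2, 61.2 and 65.8 CPM at 2%. The MCT4-KO libraries had 25.9, 25.4, 26.7 and 28.6 CPM at 20% and 57.8, 58.3, 57.5 and 54.5 CPM at 2%. No 2% library came near a 20% library in either genotype. The rise was 1.24 ± 0.052 on the log2 scale in control, 2.37-fold (edgeR adjusted p = 8.09e-15), and 1.10 ± 0.052 in MCT4-KO, 2.14-fold (edgeR adjusted p = 7.59e-14), with no call of a difference between the genotypes (-0.15 ± 0.073, edgeR adjusted p = 0.161). At 2% oxygen MCT4-KO cells had 57.0 ± 1.69 CPM against 62.0 ± 3.71 in control (SD, n = 4), a log2 fold change of -0.12 ± 0.048 that missed the threshold (edgeR adjusted p = 0.0553) and passed it in 4 of 16 alternatives, whose adjusted p ran from 0.0171 to 0.192; without control replicate 4 at 2% it was -0.089 (edgeR adjusted p = 0.157). At 20% oxygen the log2 fold change was 0.027 ± 0.055.

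**Figure D2:**
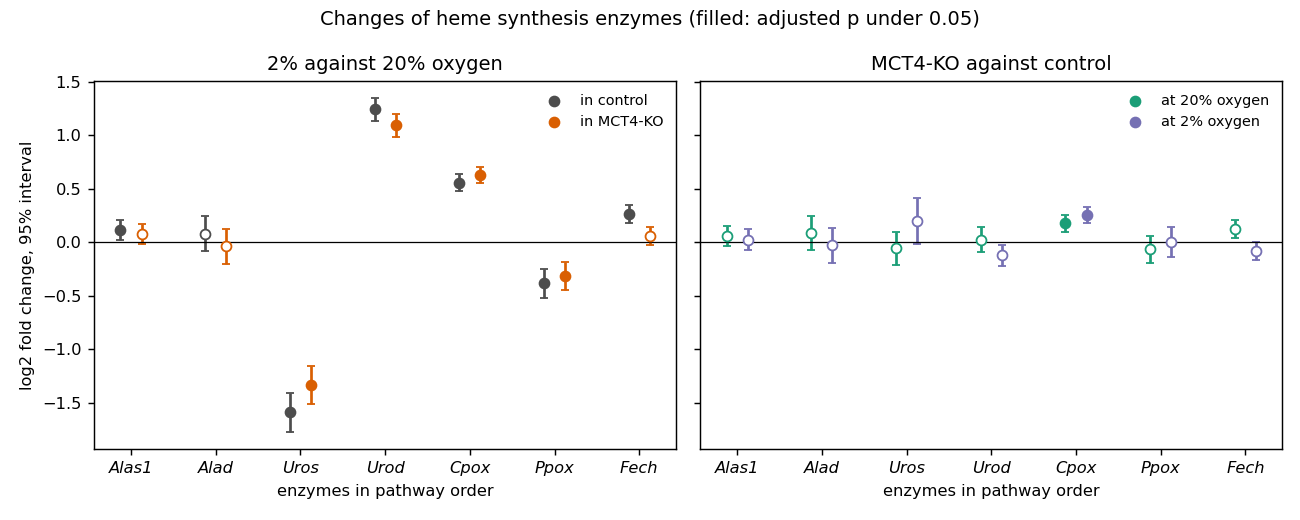
Log2 fold change of each enzyme with its 95% interval, in pathway order, for 2% against 20% oxygen (left, by genotype) and MCT4-KO against control (right, by oxygen level); filled points have an adjusted p under 0.05. The oxygen changes span -1.59 (Uros) to 1.24 (Urod) in control, and on the right Cpox alone is filled at both oxygen levels.

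The enzymes that use oxygen also parted. Cpox, coproporphyrinogen oxidase of the mitochondrial intermembrane space, rose with low oxygen and with MCT4 knockout. At 20% oxygen the control libraries had 27.2, 24.6, 26.6 and 25.8 CPM, and the MCT4-KO libraries 29.4, 28.6, 29.96 and 29.7 CPM. At 2% the control libraries had 38.5, 37.6, 39.3 and 37.7 CPM, and the MCT4-KO libraries 45.4, 46.5, 45.9 and 44.99 CPM. The 4 groups did not overlap, and stood in the order control at 20%, MCT4-KO at 20%, control at 2% and MCT4-KO at 2%. How many of all tested genes separate these groups as fully was not counted. Low oxygen raised Cpox by 0.56 ± 0.038 in control (1.47-fold, edgeR adjusted p = 2.33e-11) and 0.63 ± 0.036 in MCT4-KO (1.55-fold, edgeR adjusted p = 1.86e-12).

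Cpox was also the member called for MCT4 knockout, by 0.18 ± 0.038 at 20% oxygen (1.13-fold, edgeR adjusted p = 0.00465) and 0.25 ± 0.036 at 2% (1.19-fold, edgeR adjusted p = 1.59e-05). It was 1 of 7 enzymes called at each oxygen level, where 9.76% of all tested genes were called at 20% oxygen (4.96% higher, 4.80% lower) and 38.4% at 2% (19.4% higher, 19.1% lower). All 4 MCT4-KO libraries were above all 4 control libraries at either oxygen level. The knockout effect at 2% exceeded that at 20% by 0.076 ± 0.052, which was not called (edgeR adjusted p = 0.320). Each of the 16 alternatives kept both calls, and without control replicate 4 at 2% the value there was 0.25. With library-size scaling, 60.1% of called genes were higher in MCT4-KO at 20% oxygen and 63.1% at 2%, beside 50.8% and 50.4% with TMM, and Cpox was higher with either scaling.

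Ppox, the oxidase of the inner mitochondrial membrane that acts after CPOX, fell. It had 22.4, 21.6, 19.3 and 21.9 CPM in control at 20% oxygen and 15.99, 15.7, 16.9 and 16.9 CPM at 2%. The MCT4-KO libraries had 21.4, 18.7, 20.95 and 20.6 CPM at 20% and 17.01, 18.1, 15.1 and 15.5 CPM at 2%. The oxygen groups did not overlap in either genotype, and the genotypes overlapped at each oxygen level. It fell by 0.38 ± 0.064 in control (edgeR adjusted p = 1.48e-05) and by 0.31 ± 0.063 in MCT4-KO (edgeR adjusted p = 1.38e-04). B4galt3, which overlaps its exons, fell by 0.17 ± 0.046 in control (edgeR adjusted p = 0.00259) and had -0.069 ± 0.045 in MCT4-KO (edgeR adjusted p = 0.174). Some reads were divided between B4galt3 and Ppox, as given above, and the part of this in the fall of Ppox was not tested. The log2 fold change with knockout was -0.065 ± 0.061 at 20% and 0.0029 ± 0.066 at 2% oxygen.

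Fech, the ferrochelatase that completes heme (chr18:64452914-64490251), was the 1 enzyme of 7 whose response to oxygen was called as different between the genotypes. At 20% oxygen its control libraries had 44.2, 42.6, 40.4 and 42.1 CPM, and its MCT4-KO libraries 45.9, 46.2, 46.6 and 45.8 CPM. At 2% its control libraries had 53.1, 50.6, 51.9 and 48.1 CPM, and its MCT4-KO libraries 49.0, 50.1, 47.9 and 45.4 CPM. MCT4-KO was the higher genotype at 20%, with no overlap, and had the lower mean at 2%, with overlap. In control cells low oxygen raised Fech by 0.27 ± 0.040 (edgeR adjusted p = 3.67e-06), and in MCT4-KO cells the value was 0.060 ± 0.039 (edgeR adjusted p = 0.168). The interaction of -0.21 ± 0.056 was called (edgeR adjusted p = 0.0113), as were 22.9% of all tested genes, and 11.3% of all tested genes were called in this direction. It was called in all 23 alternatives, with values from -0.23 to -0.18, and was -0.23 without control replicate 4 at 2% (edgeR adjusted p = 0.00335).

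The separate steps behind that interaction were small. Knockout gave Fech 0.12 ± 0.039 at 20% oxygen (edgeR adjusted p = 0.0521) and -0.082 ± 0.039 at 2% (edgeR adjusted p = 0.107). The first passed the threshold in 4 of 16 alternatives, with adjusted p from 0.0373 to 0.140 over them, and without control replicate 1 at 20% it was 0.15 (edgeR adjusted p = 0.0396). The second passed only without control replicate 4 at 2% (-0.11, edgeR adjusted p = 0.0366), and over its alternatives the adjusted p reached 0.433. With library-size scaling the oxygen response of Fech was 0.062 in control (edgeR adjusted p = 0.171) and -0.12 in MCT4-KO (edgeR adjusted p = 0.0122), so its direction in MCT4-KO turned with the scaling while the difference between genotypes did not.

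Levels of different genes were compared per length, as TMM-scaled CPM per kilobase (kb) of the merged GENCODE exons. At 20% oxygen Alas1 stood highest, at 17.6 ± 0.654 CPM per kb in control and 18.3 ± 0.361 in MCT4-KO, followed by Urod at 10.1 ± 0.675 and 10.3 ± 0.543. Ppox, Alad and Cpox lay between 3.91 and 4.80 CPM per kb on average and changed places between libraries, and Uros and Fech were lowest, at 2.996 to 3.33 CPM per kb. At 2% oxygen Urod passed Alas1 in every library, at 23.9 ± 1.43 CPM per kb in control and 22.004 ± 0.654 in MCT4-KO against 19.0 ± 1.58 and 19.4 ± 0.548 for Alas1. Cpox came next in every 2% library and Uros last, at 1.03 ± 0.0387 and 1.19 ± 0.0616 CPM per kb. The merged exons include every annotated transcript, 13838 bases for Fech and 1871 for Alad, so genes with long alternative exons are placed too low.

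**Figure D3:**
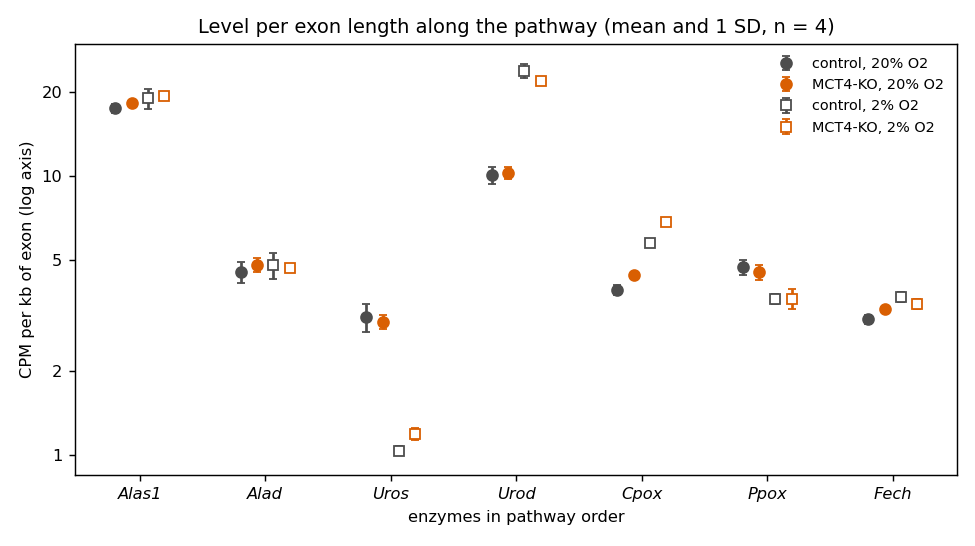
Mean level of each enzyme per kb of exon with 1 SD (n = 4), on a log axis, in pathway order. Urod (10.1 to 23.9 in control) moves above Alas1 (17.6 to 19.0) at 2% oxygen, and Uros (3.12 to 1.03) moves to the bottom.

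Summed over the 7 enzymes, the level was 45.6 to 49.6 CPM per kb in the 20% libraries and 60.2 to 63.4 in the 2% libraries, and Urod made up most of the gap. The sum of CPM without the length was 237.7 to 259.4 at 20% and 288.8 to 303.3 at 2%; scaled by library size alone it was 252 to 278 and 267 to 288, which overlap. Ratios of consecutive enzymes, chosen after their values were seen and given without a test, describe the parting. Urod over Uros, per kb, was 3.26 ± 0.375 in control and 3.44 ± 0.315 in MCT4-KO at 20% oxygen and 23.2 ± 2.13 and 18.5 ± 1.06 at 2% (SD, n = 4). Cpox over Ppox was 0.831 ± 0.0701 and 0.980 ± 0.0447 at 20% and 1.59 ± 0.0544 and 1.90 ± 0.148 at 2%. A ratio within a library does not depend on its scaling.

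**Figure D4:**
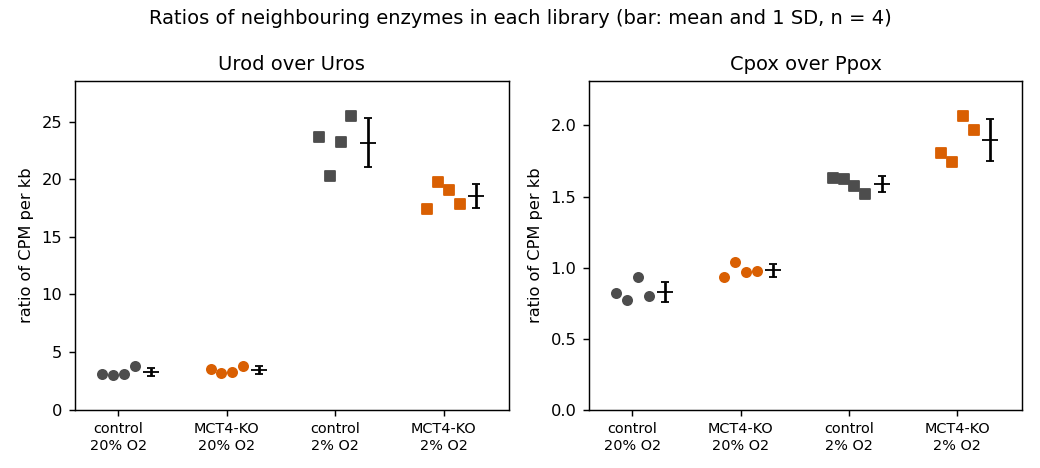
Ratio of CPM per kb for Urod over Uros (left) and Cpox over Ppox (right) in each library, with the mean and 1 SD of 4. Urod over Uros lies between 3.05 and 3.84 at 20% oxygen and between 17.4 and 25.5 at 2%, and Cpox over Ppox runs from 0.773 to 1.04 and from 1.52 to 2.06.

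For each called enzyme the genes with the most similar profile were sought. The measure of likeness is the root mean square difference of centred log2 CPM over the 16 libraries, among 9061 genes. Closest to Uros were Jagn1 (0.0904), an endoplasmic reticulum protein that neutrophils need, and Arpc5l (0.0995), an actin-nucleation subunit, against a spread of 0.73 for Uros itself. Closest to Urod were Nectin2 (0.0577), an adhesion receptor, and Lrpap1 (0.0599), a chaperone of lipoprotein receptors. Closest to Cpox were Cdc6 (0.0514), a replication licensing factor, and Lmnb2 (0.0554), a nuclear lamin. Ppox was closest to Hps3 (0.0680) and Nob1 (0.0699), and Fech to Nudt21 (0.0421) and Stim1 (0.0444). Stx16 (0.0598) was among the genes most like Alas1, whose own spread was 0.081. Among the members themselves the closest were Alas1 and Fech (0.106) and the farthest Uros and Urod (1.31).

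Alas2, the erythroid form of the first enzyme, was at 0 in 11 of 16 libraries, reached at most 1.79 expected counts and was not tested; 3 counts would stand for 0.104 to 0.142 CPM in these libraries. The summed level of the erythroid markers in the table, 14 of 15, was 1.56 to 2.54 CPM at 20% oxygen and 3.76 to 5.85 CPM at 2%. Slc4a1, Epb42, Tspo2 and Rhag, which define maturing red cells, were at 0 in every library. The 4 erythroid markers with enough counts to test rose in control cells with low oxygen, and 3 of 4 rose in MCT4-KO. In control Epor rose by 2.31 ± 0.27 (edgeR adjusted p = 1.18e-07) and Gata1 by 2.18 ± 0.35 (edgeR adjusted p = 8.70e-06). Of all tested genes, 38.7% were called higher in control and 37.7% in MCT4-KO. Klf1, called in control with TMM (0.48, edgeR adjusted p = 0.0404), was not called with library-size scaling (0.28, edgeR adjusted p = 0.232), and the markers' part in the changes of the heme enzymes was not tested. The megakaryocyte and mast cell markers summed to 10.6 to 16.1 CPM at 20% and 49.1 to 72.1 CPM at 2%, mostly Mcpt8, a basophil protease, at 9.01 CPM on average in control at 20% and 61.9 CPM at 2%. Of the 6 tested, 3 were called higher and 2 lower in control (Ms4a2 at -1.35 and Gp1ba at -0.95), and 3 and 1 in MCT4-KO. Beside these counts, 78.3% of all tested genes were called in control and 76.4% in MCT4-KO. Fcer1a was at 0 throughout.

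Mitochondrial transport around the pathway was split as well, with 7 of 16 genes higher and 8 lower at 2% oxygen in control and 6 and 6 in MCT4-KO, beside 78.3% and 76.4% of all tested genes called. The median log2 fold change of the list was -0.13 and -0.024. Slc25a37 (mitoferrin 1) and Slc25a28 (mitoferrin 2), which bring iron into mitochondria, both fell, Slc25a37 by 0.79 ± 0.041 in control and 1.002 ± 0.042 in MCT4-KO and Slc25a28 by 1.06 ± 0.064 and 0.87 ± 0.062. Lonp1, the mitochondrial protease, rose by 0.79 ± 0.039 and 0.77 ± 0.039. MCT4 knockout called Slc25a37 lower at 20% (-0.13 ± 0.039, edgeR adjusted p = 0.0401; 0.0642 with library-size scaling) and at 2% oxygen (-0.34 ± 0.043, edgeR adjusted p = 4.34e-06), and Slc25a39, the mitochondrial glutathione carrier, higher at 2% (0.28 ± 0.042, edgeR adjusted p = 2.78e-05). Scaled by library size, the oxygen counts of this list were 5 higher and 9 lower in control and 5 and 10 in MCT4-KO. Most genes called with that scaling over all tested genes were lower too.

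Genes that supply succinyl-CoA and glycine to ALAS1 were 4 higher and 4 lower of 8 with low oxygen in control and 4 and 3 in MCT4-KO. Of all tested genes, 78.3% were called in control and 76.4% in MCT4-KO. Without control replicate 4 at 2% the control counts of the list were 3 and 4. Dld, a shared subunit of mitochondrial dehydrogenases, fell by 0.77 ± 0.031 in control and 0.63 ± 0.030 in MCT4-KO, and Suclg2, a subunit of succinyl-CoA ligase, rose by 0.65 ± 0.030 in both. At 2% oxygen MCT4 knockout called 5 of 8 higher and none lower, led by Shmt1 (0.54 ± 0.040), Ogdh (0.32 ± 0.040) and Shmt2 (0.32 ± 0.041). That comparison called 38.4% of all tested genes, 19.4% as higher and 19.1% as lower. Shmt1 and Shmt2 interconvert serine and glycine. Scaled by library size, the oxygen counts were 1 higher and 5 lower in control and 3 and 4 in MCT4-KO. Iron-sulfur assembly, which FECH depends on, had 5 higher and 6 lower of 15 in control and 6 and 6 in MCT4-KO, near the 78.3% and 76.4% of all tested genes called. There Hspa9, a mitochondrial chaperone, fell by 1.22 ± 0.037 and 0.79 ± 0.036 and Fdx1, a ferredoxin, rose by 0.99 ± 0.065 and 0.91 ± 0.067. Library-size scaling gave 3 and 10 in control and 2 and 9 in MCT4-KO. For this list and the supply genes, that scaling also made most called genes over all tested genes lower.

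**Figure D5:**
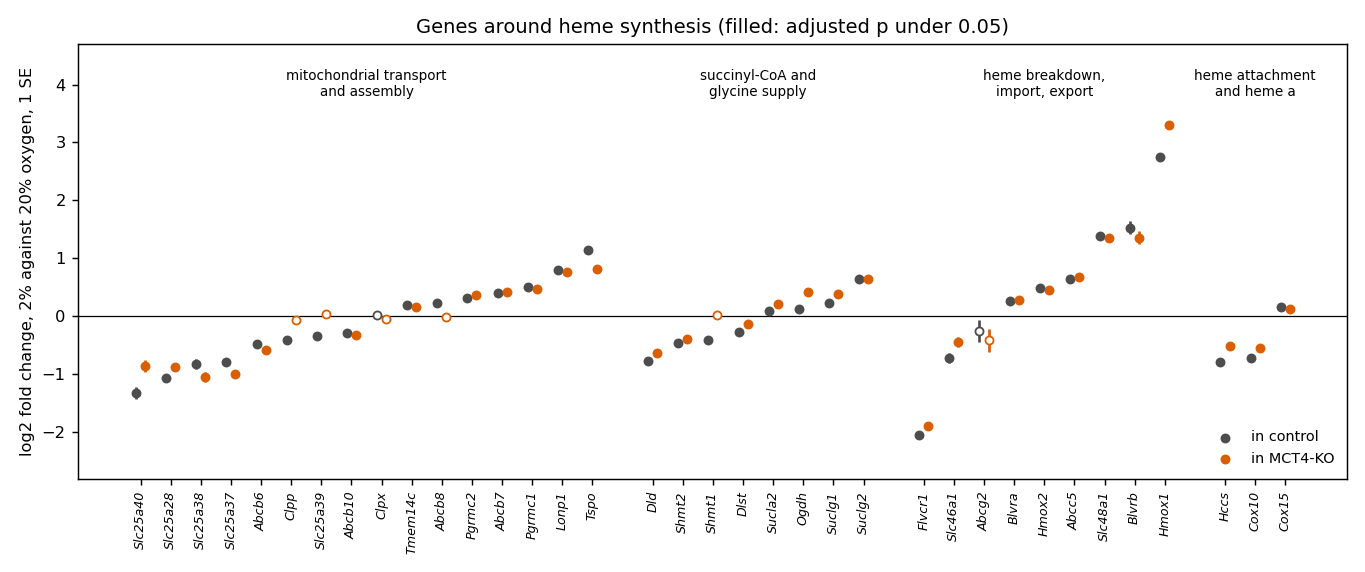
Log2 fold change with 1 SE for 2% against 20% oxygen of the genes around heme synthesis, by list and sorted within each by the value in control; filled points have an adjusted p under 0.05. Among the genes plotted (mitochondrial transport, succinyl-CoA and glycine supply, heme breakdown and transport, heme attachment and heme a), Hmox1 is highest at 2.76 in control and 3.30 in MCT4-KO and Flvcr1 lowest at -2.04 and -1.90, and each list holds genes on either side of 0.

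Genes of heme breakdown, import and export had a median absolute log2 fold change of 0.71 in control and 0.68 in MCT4-KO with low oxygen, a difference from the enzymes that was not tested. Of 9 tested genes 6 rose and 2 fell with low oxygen in either genotype, with medians of 0.49 and 0.45, beside 78.3% of all tested genes called in control (38.7% higher) and 76.4% in MCT4-KO (37.7% higher). Hmox1, the inducible heme oxygenase that opens the heme ring, averaged 10.1 ± 1.35 CPM in control at 20% oxygen and 68.6 ± 2.41 at 2%, a rise of 2.76 ± 0.068 (edgeR adjusted p = 1.68e-18), and in MCT4-KO it rose by 3.30 ± 0.069 (edgeR adjusted p = 1.69e-19). The genotype difference of 0.55 ± 0.10 was called (edgeR adjusted p = 6.89e-04). With knockout the log2 fold change of Hmox1 was -0.27 ± 0.087 at 20% oxygen (edgeR adjusted p = 0.0499; 0.0627 with library-size scaling) and 0.27 ± 0.054 at 2% (edgeR adjusted p = 5.01e-04). Slc48a1, which releases heme from lysosomes, rose by 1.38 ± 0.037 and 1.36 ± 0.037, whereas Flvcr1, a plasma membrane transporter studied as a heme exporter, fell by 2.04 ± 0.053 and 1.90 ± 0.051. Library-size scaling gave 5 higher and 3 lower in each genotype.

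Genes of heme sensing and Alas1 regulation were 4 higher and 9 lower of 15 in control and 2 and 7 in MCT4-KO. Of all tested genes, 78.3% were called in control (38.7% higher, 39.6% lower) and 76.4% in MCT4-KO (37.7% higher, 38.7% lower). Nr1d2, a heme-binding nuclear receptor of the clock, fell by 2.04 ± 0.073 and 2.29 ± 0.075, Mafg, a partner of the heme-binding repressor BACH1, fell by 0.56 ± 0.036 and 0.65 ± 0.036, and Foxo1 rose by 1.33 ± 0.071 and 0.90 ± 0.077. Library-size scaling gave counts of 1 and 11, and 2 and 12, where most called genes over all tested genes were lower too. Of the 3 genes that use finished heme for cytochromes, Hccs, which attaches heme to cytochrome c, fell by 0.78 ± 0.039 and 0.52 ± 0.038, and Cox10, which begins heme a synthesis, fell by 0.72 ± 0.042 and 0.55 ± 0.041. Cox15, which completes heme a, was called higher (0.16 ± 0.033 and 0.12 ± 0.032), and was at -0.043 and -0.054 with library-size scaling.

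Of the listed hemoproteins and their partners, 11 of 17 tested genes rose and 4 fell in control, and 11 rose and 2 fell in MCT4-KO, with medians of 0.64 and 0.44, beside 38.7% higher and 39.6% lower of all tested genes in control and 37.7% and 38.7% in MCT4-KO. The list also holds Alox5 and Uqcrc1, which carry no heme. Cyp51, a cytochrome P450 of cholesterol synthesis, rose by 1.67 ± 0.041 and 1.73 ± 0.041, Ptgs1, a cyclooxygenase, rose by 1.79 ± 0.052 in control, and Nos2, the inducible nitric oxide synthase, rose by 5.31 ± 0.17 and 5.45 ± 0.21 from under 1 CPM. Mpo, the myeloperoxidase of primary granules, averaged 139 ± 14.5 CPM in control and 309 ± 29.3 in MCT4-KO at 20% oxygen, a rise of 1.16 ± 0.075 with knockout (edgeR adjusted p = 5.42e-09), while Cpox was the member called there. At 2% oxygen the knockout effect on Mpo was 0.43 ± 0.072 (edgeR adjusted p = 9.62e-05), and the interaction of -0.73 ± 0.10 was called (edgeR adjusted p = 6.75e-05). Library-size scaling gave 11 and 4 in control and 10 and 4 in MCT4-KO.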

How the data were processed

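Poly(A) RNA was sequenced in 16 libraries. The submitters' processing notes name HISAT2, RSEM and the mouse build mm10, with no order or settings. The deposited values were taken to be RSEM expected counts per Ensembl gene, since 10.07% of its values are not whole and its columns sum to different totals. Of 53801 identifiers, 53706 matched GENCODE vM21 (GRCm38). Counts were rounded, filtered with filterByExpr (13774 genes, 99.945% of counts), TMM-scaled and fitted in all 16 libraries with edgeR 4.0.16 (quasi-likelihood, R 4.3.3; residual degrees of freedom 12, common biological coefficient of variation 4.606%). The 5 contrasts tested were oxygen within each genotype, knockout within each oxygen level, and their interaction, with Benjamini-Hochberg adjustment over all tested genes and a threshold of 0.05. SE is the coefficient over the root of F, and intervals are 95%. The method was tested on simulated counts for knockout at 20% oxygen, with those 8 libraries fitted alone (13244 genes) and not within the fit of all 16. It recovered 56% of 1.2-fold and 78% of 1.5-fold changes, and 5.49% of its calls were false. The lack of a call therefore does not exclude a small change. Alternatives used DESeq2 1.42.0, limma 3.58.1, other scalings and filters, a replicate block and each library left out; those for the counts of the gene lists were added after seeing the data. Text names all members, Slc16a3, up to 3 called genes with the smallest adjusted p per list and comparison, the 2 genes most like each called member; genes that overlap or adjoin a member were added for their position. Erythroid and other marker lists are given by their sums. The members and lists were chosen with earlier results of these data known. Some genes named by the rule are not reported.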

Additional observations from a re-analysis of the deposited data

Results flagged for a closer look

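Urod in the control libraries at 20% oxygen had 1 library far from the others: replicate 3 held 23.5 CPM, against 26.7 to 27.3 CPM in the other 3. In all, 28 groups (7 enzymes in 4 conditions) were checked this way, and chance marks about 1 in 20 such groups. Without this library the oxygen response of Urod in control was called as before.

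The response of Fech to low oxygen differed between the genotypes, with an interaction of -0.206 on the log2 scale (edgeR adjusted p = 0.0113): the enzyme rose by 0.27 in control cells, and its change in MCT4-KO cells was 0.060. No explanation was tested.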

How the results depend on the processing

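Of 609 recomputed fold changes of the 7 enzymes, 592 kept their direction or their lack of a call, 4 lost a call, 11 gained one and 2 turned direction; 15 of the uncalled values changed sign. Both that turned did so with library-size scaling, for low oxygen: Alas1 in control to -0.090 and Fech in MCT4-KO to -0.12. With that scaling Alad in MCT4-KO was called lower (-0.21, edgeR adjusted p = 0.0145), and called interactions were 60.1% higher, beside 50.6% with TMM. The enzymes called for knockout at 20% oxygen numbered 2 instead of 1 with DESeq2 size factors, with library-size scaling and with a filter of 1 CPM in 8 libraries (Fech added), and 1 to 2 with single libraries left out. At 2% oxygen they numbered 2 with DESeq2 size factors, with that filter and with the compared groups alone (Urod added), and 1 to 2 with single libraries left out. All genes called for knockout at 20% ranged from 895 (without MCT4-KO replicate 2) to 1321 with 1 library left out, against 1344 with all. The replicate numbers did not pair the samples: the deviations of same-numbered libraries correlated at -0.30 to 0.41, over 0.1 in 4 of 24 pairs. A replicate block changed no call of an enzyme, and left 1059 genes called for knockout at 20% oxygen and 4984 at 2%. Counts set the precision for Uros and Alad, with at most 315 and 259 counts per library.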

Other observations

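Hnf4a, a nuclear receptor best known from liver and listed here as a regulator of Alas1, stood at 257 to 283 CPM on average over the 4 groups of these myeloid cells. It was called higher with MCT4 knockout at 20% oxygen (0.12 ± 0.032, edgeR adjusted p = 0.0252) and lower at 2% (-0.14 ± 0.032, edgeR adjusted p = 0.00178), with an interaction of -0.26 ± 0.045 (edgeR adjusted p = 4.48e-04). Reads of genes on the opposite strand cannot be told apart in these counts.

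Alas1 and Ppox were the members whose deposited values were not whole numbers, in 16 and 15 of 16 libraries. RSEM gives such values where reads are divided among genes. Added to the values of 4930500F10Rik and B4galt3, which overlap them on the other strand, they became whole numbers. The other 5 had whole values in every library.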
